A study of Danio rerio with 49 samples.

Results

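The spinal cord caudal to a complete transection was compared between 6 and 1 weeks post injury (wpi) in zebrafish, a vertebrate that regrows axons across such a lesion and regains swimming. The 9 libraries were chosen by their labels, not by their values, and are all the caudal libraries of both times among the 49 of the series: 4 at 6 wpi (replicates 1, 2, 3 and 5) and 5 at 1 wpi (replicates 1 to 5). No library among the 49 is labelled replicate 4 of caudal 6 wpi. Fish of both groups were of the AB strain and of both sexes, carried no mutation or transgene named in the labels, and had been cut through at segment 7 behind the brainstem. Each library held 5 segments caudal to the cut, and the same segments of 5 libraries from uninjured AB fish served as the baseline. The study states 3 fish per group, pooled, and does not say whether the libraries of a group come from separate pools, so p-values measure only the spread between libraries, which may be technical. The fish were 6 to 8 weeks old when used, so fish sampled at 6 wpi may also have been older, and weeks since injury cannot be told apart from age. When the uninjured fish were sampled is not stated, so their age may match neither group. Distances from uninjured cord may thus hold a difference in age, which was not tested.

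After a transection the caudal cord loses the axons that descended from the brain, and the debris of axons and myelin is taken up by microglia and by macrophages that enter from the blood. In zebrafish, radial glia that line the central canal divide, bridge the lesion and give rise to new neurons. Injured neurons switch on transcription factors such as ATF3 and JUN together with growth proteins such as GAP43. Later, regrown axons form synapses and are wrapped again by oligodendrocytes.

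The libraries held 11514156 to 22612869 fragments on genes at 6 wpi and 12767796 to 26161299 at 1 wpi. Values are FPKM, which divides the fragments of a gene by its length in kilobases and by library depth, as the authors deposited them. The tissue label was borne out by its markers in each of the 9 libraries, where the synaptic gene SNAP25 stood at 692 to 2369 FPKM, the radial glial filament GFAP at 943 to 2173 and the myelin gene mbpa at 7502 to 45846. Markers of other tissues were present in part. The epidermal genes krt5 and epcam were listed at 0, while krt4 stood at 0.145 to 4.52 FPKM. The erythroid gene alas2 stayed at or under 0.0331 FPKM, but the globin hbaa1 ran from 11.5 to 603, and the muscle genes ckma and TNNT3 (ENSDARG00000068457) from 0.34 to 3.6 and from 0.617 to 5.27. The neutrophil gene lyz stayed at or under 0.372 FPKM. The glycine transporter slc6a5 of inhibitory neurons stayed at or under 0.0578 FPKM. Mitochondrial transcripts took 18.6% to 19.2% of the fragments at 6 wpi, against 11.2% to 16.8% at 1 wpi and 14.1% to 27.1% in uninjured cord, and their part in the results below was not tested. For same-numbered libraries of the 2 times, deviations from group means correlated at 0.177, 0.374, 0.112 and 0.319 in replicates 1, 2, 3 and 5. The mean over the 16 pairs of different number was -0.062. Deviations from group means cancel within a group, so positive correlations in some pairs force negative ones in others. That mean is thus no separate comparison. The highest correlation of the 20 was nevertheless between different numbers, 0.387 for 6 wpi replicate 5 with 1 wpi replicate 4. A pair of different number, 6 wpi replicate 2 with 1 wpi replicate 1, also reached 0.12, above the 0.112 of replicate 3. The replicate number was a block by the rule that set this comparison, and these correlations do not establish that numbers pair libraries. The block makes a fold change the mean of 4 within-number differences. It leaves 1 wpi replicate 4, which has no partner, without weight in the fold change.

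Of 27956 genes tested on log2(FPKM + 0.1) by limma, 1864 (6.67%) differed between 6 and 1 wpi at a Benjamini-Hochberg adjusted p under 0.05, and falls outnumbered rises. The difference was negative for 1248 genes (4.46%), which fell, and positive for 616 (2.2%), which rose, while the median over all genes was 0.03. For 1018 of the 1864 the difference was over 2-fold. The 4 libraries of 6 wpi did not overlap the 5 of 1 wpi in 2637 genes (9.43%), which were higher at 6 wpi in 1127 (4.03%) and lower in 1510 (5.4%), and 1228 genes both passed the test and did not overlap. The calls rested on all 4 pairs. The lowest adjusted p was 0.0132, and leaving out any 1 of the 8 paired libraries left 0 genes called, with a lowest adjusted p of 0.0548 to 0.113 and 5599 to 6461 genes at an unadjusted p under 0.05, against 7374 in the full fit. Among the 101 genes that passed and were chosen to be named, the sign was kept in all of these fits. These genes were chosen on the same libraries, some of them for no overlap, so kept signs are no independent support.

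**Figure D1:**
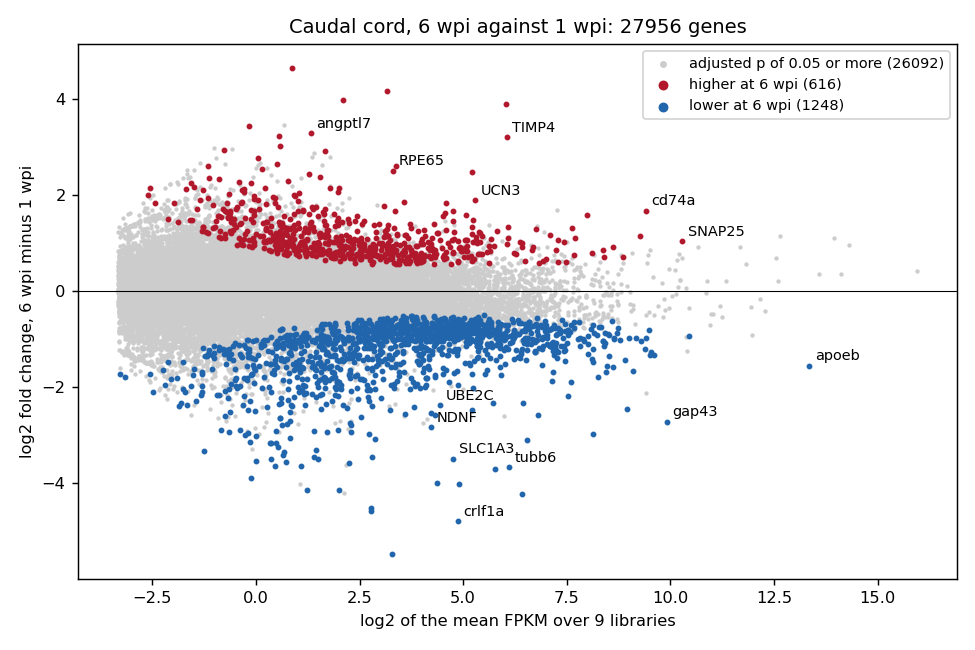
Change of each of the 27956 genes between 6 and 1 wpi in caudal cord, as the log2 difference of FPKM + 0.1 (y axis, 6 wpi minus 1 wpi), against its mean FPKM over the 9 libraries (x axis, log2 scale). Coloured points are the 616 genes that rose and the 1248 that fell at an adjusted p under 0.05, with labels on named genes such as crlf1a near the foot and TIMP4 near the top.

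A gene was called nearer to uninjured cord at 6 wpi when its mean log2 value there differed less from the mean of the 5 uninjured libraries than the 1 wpi mean did. This held for 1497 of the 1864 genes that passed (80.3%), against 17920 of all 27956 (64.1%). It held for 1063 of the 1248 genes that fell (85.2%) and for 434 of the 616 that rose (70.5%). The median distance from uninjured cord of the 1864 genes was 0.34 on the log2 scale at 6 wpi, against 0.94 at 1 wpi. These shares are descriptions without a test, since both distances share the uninjured libraries and since a gene far from the baseline at 1 wpi can pass the test more easily.

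**Figure D2:**
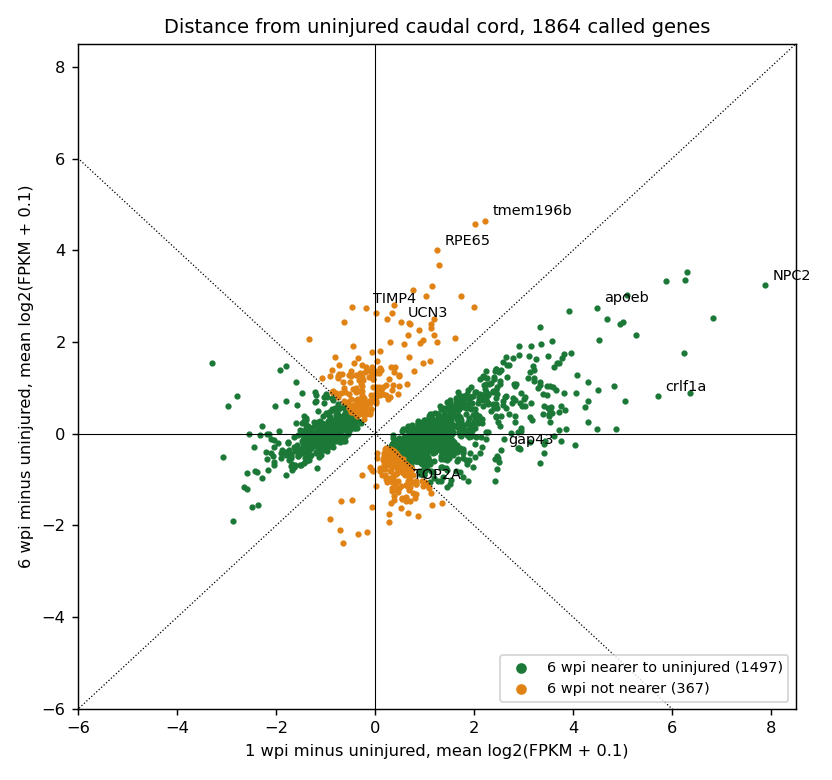
Difference from uninjured caudal cord on the log2(FPKM + 0.1) scale at 6 wpi (y axis) against that at 1 wpi (x axis) for the genes that passed the test between both times. Points between the dotted diagonals, closer to the x axis, are the 1497 genes that lay nearer to uninjured cord at 6 wpi, and points outside them the 367 that did not, among them TIMP4, RPE65, UCN3 and tmem196b.

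Several of the large falls were in genes that were low in uninjured cord. Symbols are written as the name table gives them, several in human style, and coordinates are of danRer11. crlf1a (chr2:41876595-41920632), a secreted partner of CLCF1, a cytokine of the interleukin 6 family, had 1.31, 1.91, 1.04 and 1.86 FPKM at 6 wpi, against 18.9, 44.2, 64.2, 63.9 and 67.9 at 1 wpi and 0.691 to 0.881 in uninjured cord. All libraries of 6 wpi lay under all of 1 wpi. Its fold change was -4.79 ± 0.33 (log2, SE, adjusted p = 0.0144), with 6 wpi nearer. NPC2 (chr17:43021662-43022468, ENSDARG00000096979), a sterol carrier of the lysosome, had 3.10, 4.66, 1.53 and 15.0 FPKM at 6 wpi, against 39.9, 59.1, 188, 351 and 102 at 1 wpi. It was at most 0.937 FPKM in uninjured cord, so 6 wpi was nearer but had not come down to it (-4.22 ± 0.63, log2, SE, adjusted p = 0.0253).

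Other large falls, on the log2 scale, were in tppp, named for tubulin polymerization (-4.59), the natriuretic peptide nppb (-4.00), the chemokine ccl34a.4 (-3.71), the tubulin tubb6 (-3.66) and the epithelial integrin ITGB6 (-3.65), with adjusted p of 0.016 to 0.0392. Each of these 5 lay nearer to uninjured cord at 6 wpi, and in each the libraries of both times did not overlap. tppp had 0.192, 0, 0.241 and 2.57 FPKM at 6 wpi, against 6.52 to 17.5 at 1 wpi, and its standard error of 0.89 was the widest of these. myl4, an atrial myosin light chain, and CRYBB2, a lens crystallin, rested on at most 6 and 8 fragments in any library of 6 wpi, and both had a fold change of -4.14 (log2), with 6 wpi nearer. myl4 overlaps scn4ab on the opposite strand. The somatostatin gene sst2 had at most 3 fragments in any library of 6 wpi, too few for a fold, and stood at 0.963 to 7.27 FPKM at 1 wpi. It too was nearer to uninjured cord at 6 wpi.

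The large rises divided between genes that came closer to the baseline and genes that moved away from it. angptl7, an angiopoietin-like secreted protein, had 3.90, 3.70, 2.12 and 11 FPKM at 6 wpi, against 0.138 to 0.485 at 1 wpi and 0.488 to 5.14 in uninjured cord (3.29 ± 0.43, log2, SE, adjusted p = 0.0213), with 6 wpi nearer. The stress peptide CRH had 5.87, 5.19, 4.90 and 13.1 FPKM at 6 wpi, against 1.13 to 1.89 at 1 wpi and 2.93 to 15.8 in uninjured cord, a rise of 2.15 (log2, adjusted p = 0.0269) that brought it nearer. The tachykinin precursor tac4 (2.65) and susd5 (2.45) rose and were likewise nearer at 6 wpi, and tac4 had at most 36 fragments in a library of 6 wpi and 8 in one of 1 wpi.

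The rises away from the baseline were led by TIMP4 (chr11:714386-718748), an inhibitor of matrix metalloproteinases, which had 121, 79.9, 134 and 162 FPKM at 6 wpi, against 8.97, 7.63, 9.40, 34.5 and 42.8 at 1 wpi. Its fold change was 3.21 ± 0.32 (log2, SE, adjusted p = 0.0173), and the uninjured libraries stood at 3.68, 8.87, 10.6, 36.0 and 144 FPKM. It lay further from their mean at 6 wpi, although the highest uninjured library exceeded 3 of the 4 at 6 wpi. TIMP4 lies inside syn2b on the opposite strand, and since the sources do not say that strand was used in counting, reads of the 2 cannot be told apart. RPE65 (chr2:1428696-1443692, ENSDARG00000007480), an enzyme that isomerizes retinoids in the pigment epithelium of the eye, had 16.1, 10.1, 8.87 and 41.8 FPKM at 6 wpi, against 3.83, 3.73, 1.44, 1.12 and 2.46 at 1 wpi and 0.724 to 1.18 in uninjured cord (2.51 ± 0.41, log2, SE, adjusted p = 0.0281). Every library of 6 wpi stood above every uninjured one. Another gene of that symbol (ENSDARG00000054420) fell by 1.02 on the log2 scale (adjusted p = 0.0235, 0.0568 without the block, 6 wpi nearer). tmem196b had 7.89, 25.0, 7.58 and 38.6 FPKM at 6 wpi, against 1.94 to 4.74 at 1 wpi and 0.230 to 1.59 in uninjured cord, and rose by 2.60 (log2, adjusted p = 0.0313). The opioid precursor pdyn (2.37), the Wnt inhibitor SFRP2 (2.30) and the tyrosine-degrading enzyme HPD (1.96) rose with adjusted p of 0.0213 to 0.0261 and were also further from uninjured cord at 6 wpi. The small nuclear RNA U6 passed the test, but with at most 7 fragments at 6 wpi and 3 at 1 wpi, and as a multicopy RNA, it gives no fold here (6 wpi nearer).

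**Figure D3:**
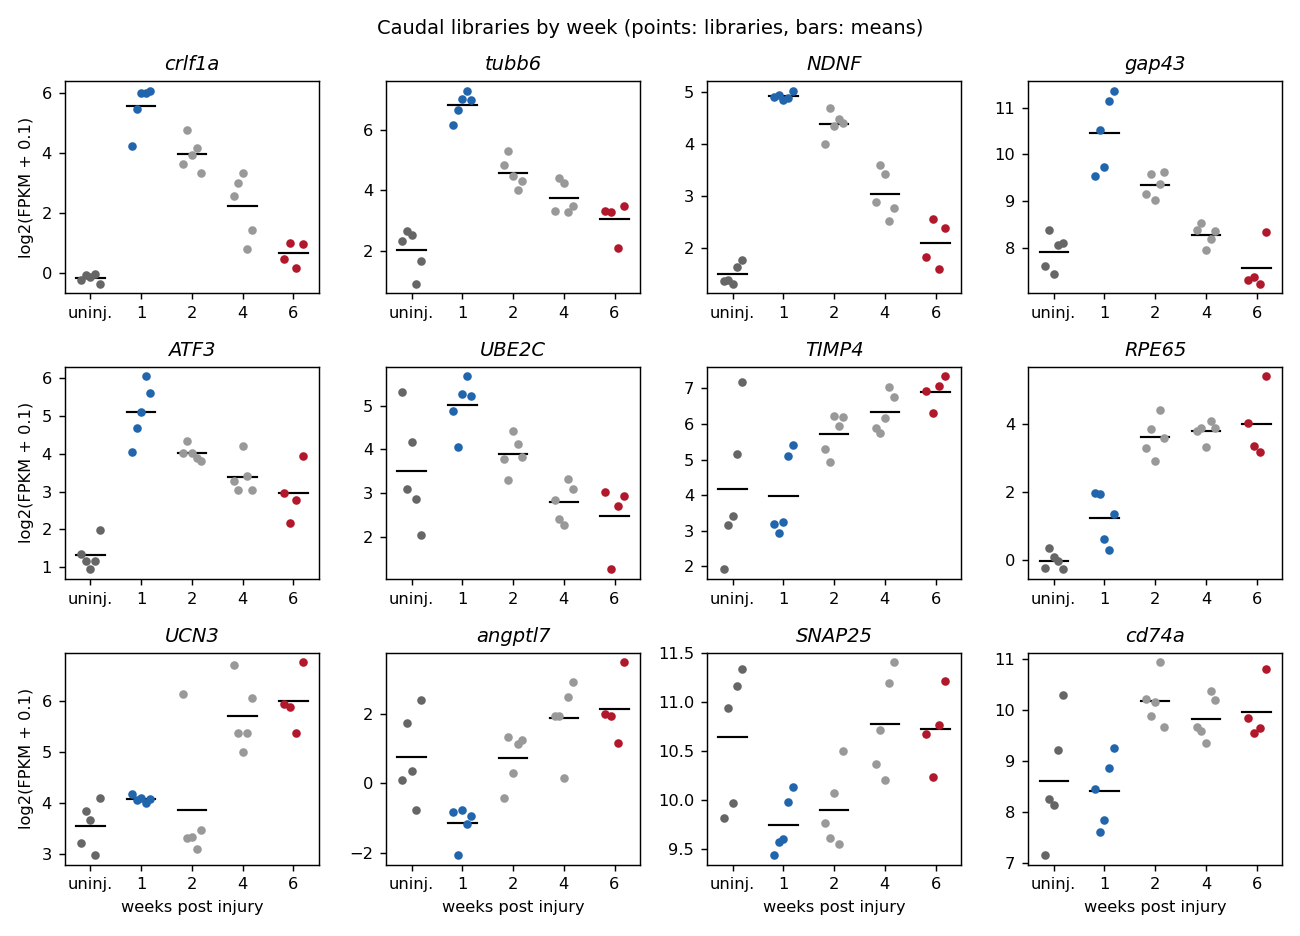
Level of 12 genes as log2(FPKM + 0.1) in each caudal library, with uninjured cord on the left and then 1, 2, 4 and 6 wpi, a point for each library and a bar for the mean. crlf1a, tubb6, NDNF, gap43 and ATF3 are high at 1 wpi and low at 6 wpi, while TIMP4, RPE65 and UCN3 are highest at 6 wpi.

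The genes of cell division gave the densest set of falls. Of 63 genes of DNA replication tested, 32 fell and 0 rose (50.8% called, against 6.67% of all genes), with a median log2 difference of -0.94 against 0.03 over all genes, and 57 (90.5%) lay nearer to uninjured cord at 6 wpi. MCM5, a subunit of the replicative helicase, had 3.47, 2.18, 3.21 and 3.26 FPKM at 6 wpi, against 9.34, 8.93, 8.38, 8.57 and 10.5 at 1 wpi and 1.90 to 5.45 in uninjured cord (-1.60 ± 0.16, log2, SE, adjusted p = 0.0172, 6 wpi nearer). TYMS, which makes thymidylate, fell by 2.02 (adjusted p = 0.016), and PCNA, the sliding clamp of DNA polymerase, fell by 1.28 on the log2 scale (adjusted p = 0.0205), both with 6 wpi nearer. Helicase subunits MCM2, MCM3, MCM4 and MCM6 fell as well, by 1.43, 1.36, 1.41 and 1.34 on the log2 scale, with 6 wpi nearer in each.

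Of 79 genes of mitosis tested, 48 fell and 0 rose (60.8%, against 6.67% of all genes, median log2 difference -1.36). UBE2C, which with the anaphase-promoting complex marks mitotic proteins for destruction, had 8.08, 2.27, 6.36 and 7.55 FPKM at 6 wpi, against 29.3, 16.6, 38.2, 50.9 and 37.3 at 1 wpi. The 2 groups did not overlap (-2.38 ± 0.18, log2, SE, adjusted p = 0.0145), and 6 wpi was nearer, but uninjured libraries ran at 39.5, 8.48, 17.9, 7.14 and 4.03 FPKM and so spanned both groups. The mitotic cyclin CCNB1 fell by 2.30 (log2, adjusted p = 0.016, 6 wpi nearer). TOP2A, a topoisomerase of dividing cells, and the proliferation marker mki67 fell by 1.78 and 1.73. Their 6 wpi means lay below the uninjured means and further from them, but in both genes the libraries of 6 wpi overlapped the uninjured ones. Whether the mitosis genes were nearer to the baseline depended on the uninjured libraries. At 6 wpi 40 of the 79 (50.6%, against 64.1% of all genes) were nearer with all 5 of them. The count was 67 (84.8%) without uninjured replicate 1, 29 (36.7%) without replicate 4 and 22 (27.8%) without replicate 5. With uninjured replicates 1 to 3 only, 15 (19%) were nearer, and with replicates 4 and 5 only, 72 (91.1%) were. The mean log2 level of the list, relative to the uninjured mean, was -1.03 to -0.32 at 6 wpi, against 0.48 to 0.79 at 1 wpi and -0.87 to 1.03 in the uninjured libraries themselves. In bulk tissue, fewer cells of a type and less RNA per cell cannot be told apart, here and in the lists that follow.

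**Figure D4:**
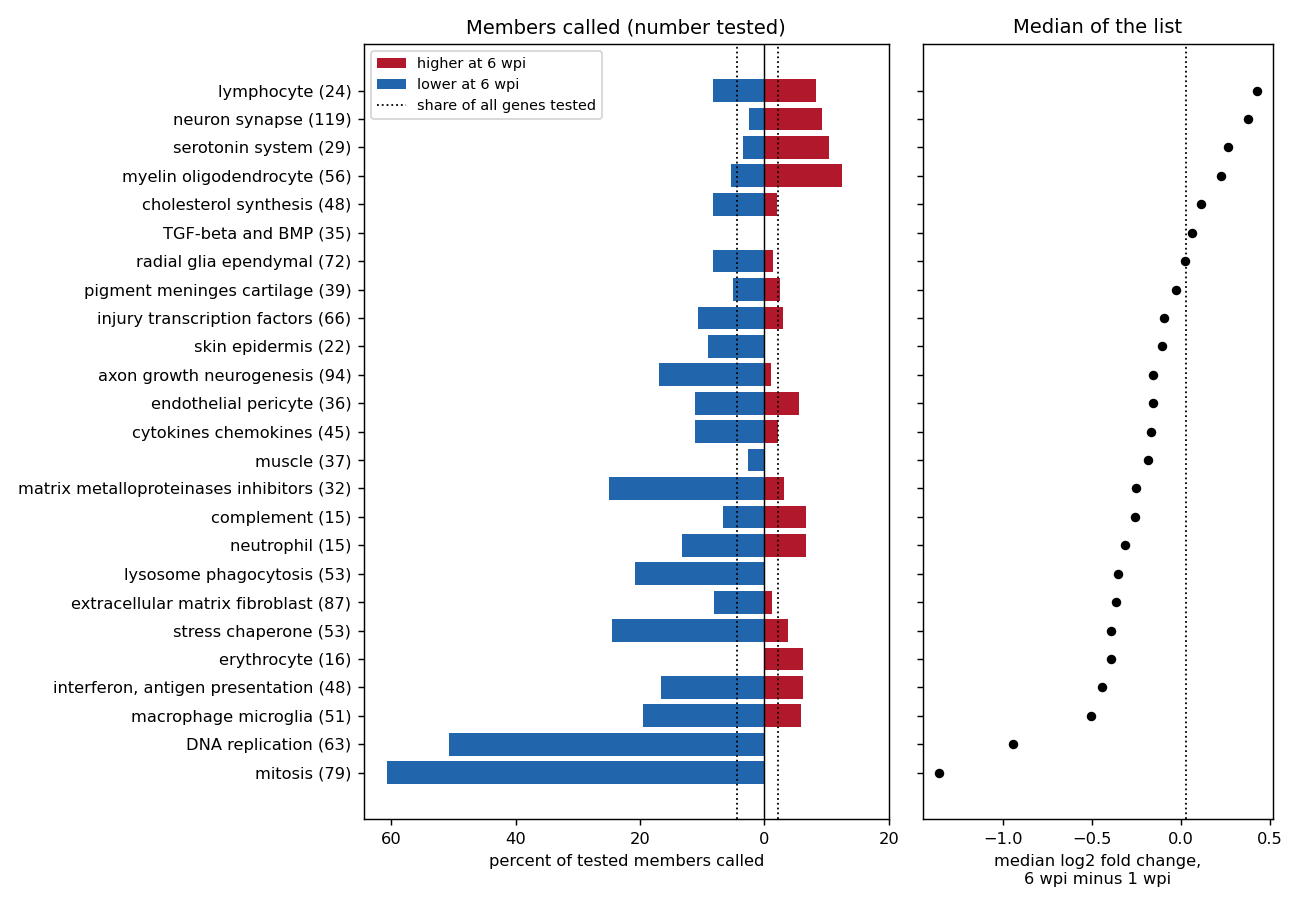
Percent of the tested members of each gene list (their number in brackets) that rose or fell at 6 against 1 wpi in caudal cord at an adjusted p under 0.05, with dotted lines at the share of all genes, and beside it the median log2 difference of each list. Mitosis (48 of 79) and DNA replication (32 of 63) had the highest shares of falls, and genes of myelin and oligodendrocytes (7 of 56) the highest share of rises.

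Transcription factors of the injury response gave 7 falls and 2 rises among 66 tested (13.6%, against 6.67% of all genes, median -0.09). ATF3, a stress-induced factor of axotomized neurons, had 7.65, 4.43, 6.78 and 15.4 FPKM at 6 wpi, against 16.4, 25.6, 34.6, 66.3 and 49.2 at 1 wpi and 1.82 to 3.86 in uninjured cord. It fell by 1.90 on the log2 scale (adjusted p = 0.0213) and was nearer at 6 wpi, with all 4 libraries still above the highest uninjured one. The AP-1 subunits JUNB (ENSDARG00000104773, -1.69, adjusted p = 0.0191) and fosl1b (-3.59, adjusted p = 0.0297) fell and were nearer at 6 wpi. A Fos gene of the same dimer family, fosaa, went the other way, with a rise of 1.67 that also brought it nearer to uninjured cord. Among 45 cytokines, chemokines and their receptors, 5 fell and 1 rose (13.3%, median -0.17). Among these falls were clcf1, the ligand partner of crlf1a, by 3.01, and m17, a fish cytokine of the interleukin 6 family, by 1.45 on the log2 scale (adjusted p = 0.0277 and 0.027), with 6 wpi nearer in both. clcf1 had 0.0131 to 0.123 FPKM at 6 wpi, against 0.620 to 2.48 at 1 wpi, and overlaps SSRP1 on the opposite strand.

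Of 94 genes of axon growth and neurogenesis 16 fell and 1 rose (18.1%, against 6.67% of all genes, median -0.15). gap43 (chr15:47161917-47176151), a growth cone protein, had 159, 167, 150.3 and 325 FPKM at 6 wpi, against 739, 1477, 853, 2253 and 2628 at 1 wpi. The 6 wpi values lay within or just under the uninjured range of 175 to 332 FPKM, so that 6 wpi was nearer (-2.72 ± 0.20, log2, SE, adjusted p = 0.0145). tubb6, given above, the adhesion protein cntn1a (-1.42, adjusted p = 0.0145), and the alpha tubulin TUBA1A (-1.32, adjusted p = 0.0273) fell as well. TUBA1A had 389, 265, 376 and 589.8 FPKM at 6 wpi, against 609.9 to 1495 at 1 wpi and 342 to 1277 in uninjured cord, and was further from the baseline at 6 wpi, while cntn1a was nearer. The 1 member that rose was vgf, a secreted neuropeptide precursor, with 15.3, 12.7, 19 and 12.7 FPKM at 6 wpi, against 4.86 to 7.87 at 1 wpi and 3.85 to 10.3 in uninjured cord (1.32 ± 0.14, log2, SE, adjusted p = 0.0178, 6 wpi further). Of 72 genes of radial glia and ependyma 6 fell and 1 rose (9.72%, near the 6.67% of all genes, median 0.02). SLC1A3 (ENSDARG00000043148), 1 of 2 genes of that symbol and a glutamate transporter of glia, had 3.09, 6.62, 3.14 and 2.83 FPKM at 6 wpi, against 31.3, 50.9, 61.8, 50.9 and 32.9 at 1 wpi and 1.23 to 2.97 in uninjured cord (-3.49 ± 0.22, log2, SE, adjusted p = 0.0132, 6 wpi nearer). The other (ENSDARG00000104431) averaged 28.5 FPKM at 6 wpi, against 18.3 at 1 wpi, without overlap (0.55 ± 0.14, log2, SE), but did not pass (adjusted p = 0.0667, 6 wpi further). The heparin-binding growth factor MDK fell by 1.15 (adjusted p = 0.0332, nearer), and the filament VIM (ENSDARG00000010008) by 0.82 (adjusted p = 0.0302, 0.0715 without the block), to a mean under that of uninjured cord and further from it. GFAP averaged 1375 ± 552 FPKM at 6 wpi and 1082 ± 94.2 at 1 wpi (SD, n = 4 and 5), with a fold change of 0.23 ± 0.23 (log2, SE, adjusted p = 0.579), and lay further from uninjured cord at 6 wpi. SOX2, a factor of neural progenitors, averaged 48.6 ± 12.2 FPKM at 6 wpi and 60.0 ± 12.2 at 1 wpi (SD, n = 4 and 5, -0.25 ± 0.11, log2, SE, adjusted p = 0.21), with 6 wpi nearer.

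Macrophage, microglial and lysosomal genes fell more often than they rose at 6 wpi, and most did not pass the test. Of 51 macrophage and microglial genes 10 fell and 3 rose (25.5%, against 6.67% of all genes, median -0.50). At 6 wpi 44 of them (86.3%, against 64.1% of all genes) were nearer to uninjured cord. Their summed FPKM was 4464 to 14915 at 6 wpi, against 10182 to 29262 at 1 wpi and 915 to 4737 in uninjured cord, so that the 2 times overlapped. A large part of that sum was 1 gene, apoeb, an apolipoprotein of lipid-laden phagocytes and the list member with the highest mean level. apoeb had 2217, 5755, 2145 and 10181 FPKM at 6 wpi, against 7977, 14196, 8959, 22317 and 20613 at 1 wpi and 249 to 1692 in uninjured cord (-1.56 ± 0.28, log2, SE, adjusted p = 0.0326). It was nearer at 6 wpi, its groups overlapped, and without the block its adjusted p was 0.15. MPEG1 (ENSDARG00000055290), a pore protein of macrophages, had 1.84, 2.12, 3.05 and 3.69 FPKM at 6 wpi, against 4.33 to 9.38 at 1 wpi and 0.501 to 3.51 in uninjured cord (-1.28 ± 0.13, log2, SE, adjusted p = 0.0176, 6 wpi nearer). Another MPEG1 gene (ENSDARG00000043093, -0.06, adjusted p = 0.861), the receptor csf1ra (-0.39, adjusted p = 0.396), the myeloid factor SPI1 (-0.27, adjusted p = 0.344) and the complement gene c1qa (-0.98, adjusted p = 0.299) did not pass, and their groups overlapped. The galectin lgals9l1 fell by 1.90 (adjusted p = 0.0207, nearer), and the complement receptor c5ar1 by 1.65 on the log2 scale (adjusted p = 0.018, nearer). The 3 that rose were cd74a and cd74b, given below, and NCF1, a subunit of the phagocyte oxidase (0.93, adjusted p = 0.0323, further), whose groups overlapped and whose adjusted p without the block was 0.47. Of 53 lysosomal and phagocytic genes 11 fell and 0 rose (20.8%, against 6.67% of all genes, median -0.35). Among the falls were NPC2 and the proteases CTSK (-1.30, adjusted p = 0.018) and CTSB (-1.08), each nearer at 6 wpi. CTSB overlapped between both times and did not pass without the block (adjusted p = 0.0838). CTSK had 11.3, 10.2, 10.9 and 14.2 FPKM at 6 wpi, against 24.6 to 39.9 at 1 wpi and 2.28 to 5.74 in uninjured cord, so that 3 separate levels did not overlap.

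Genes of the interferon response and antigen presentation moved both ways, with 8 falls and 3 rises among 48 (22.9%, against 6.67% of all genes, median -0.44). The 3 that rose are genes of antigen presentation, and they were the invariant chains cd74a and cd74b and the class I light chain b2ml (0.85, further, adjusted p = 0.344 without the block). cd74a (chr14:3038473-3052361), which escorts class II molecules, had 922, 749, 804 and 1807 FPKM at 6 wpi, against 351, 195, 231, 468 and 615 at 1 wpi and 142, 306, 284, 598 and 1262 in uninjured cord. It rose by 1.67 ± 0.15 (log2, SE, adjusted p = 0.0172), lay further from uninjured cord at 6 wpi, and did not pass without the block (adjusted p = 0.056). cd74b rose by 1.16 (adjusted p = 0.018, 0.198 without the block) and was also further. Outside the list, mhc2dgb, a class II chain chosen after its values were seen, had 22.3, 14.5, 19.5 and 24.9 FPKM at 6 wpi, against 5.37 to 12.5 at 1 wpi and 1.45 to 18.5 in uninjured cord (1.31 ± 0.14, log2, SE, adjusted p = 0.0178, 6 wpi further), and overlaps mhc2dga on the opposite strand. Among the 8 that fell were the interferon-induced GTPases mxc (-3.08), mxb (-2.16), mxe (-1.47), gbp1 (-1.69) and gbp2 (-1.29), and also PSME2 (-1.22, adjusted p = 0.093 without the block) and PSMB10 (-0.99), parts of proteasomes that cut peptides for presentation, each nearer at 6 wpi. mxc had 0.648 to 1.86 FPKM at 6 wpi, against 4.00 to 23.8 at 1 wpi and 0.338 to 1.13 in uninjured cord. In the complement list, c3b.1, a C3 gene, rose by 2.12 (log2, adjusted p = 0.0211), its libraries lying between 0.938 and 2.33 FPKM at 6 wpi, against 0.116 and 0.316 at 1 wpi and 0.1 and 0.229 in uninjured cord, with 6 wpi further. c5ar1 was the other member that passed of the 15 tested (13.3% called, against 6.67% of all genes).

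Most neuronal genes were higher at 6 wpi by small amounts. Of 119 genes of neurons and synapses 97 had a positive difference (median 0.38, against 0.03 over all genes). Among them 11 rose and 3 fell (11.8%, against 6.67% of all genes). At 6 wpi 99 (83.2%, against 64.1% of all genes) were nearer to uninjured cord. By the mean log2 level of the list, relative to the uninjured mean, both times overlapped. Replicate 5 of 6 wpi, with -0.584, fell below replicates 1 and 2 of 1 wpi, with -0.405 and -0.314. It was still above replicate 5 of 1 wpi, with -0.911. Every other library of 6 wpi was above all of 1 wpi. SNAP25 (ENSDARG00000020609), a protein of vesicle fusion, had 1628, 1203, 1730.0 and 2369 FPKM at 6 wpi, against 692, 759.6, 776, 1010.0 and 1118 at 1 wpi and 897 to 2577 in uninjured cord. All 4 libraries of 6 wpi lay above all 5 of 1 wpi (1.03 ± 0.17, log2, SE, adjusted p = 0.0285, 6 wpi nearer), but the adjusted p without the block was 0.11. The vesicle protein syn2b rose by 1.1 (adjusted p = 0.0302, nearer), but TIMP4 lies inside it and reads of the 2 cannot be told apart. The choline transporter SLC5A7 rose by 1.49, the GABA-synthesizing enzyme GAD1 (ENSDARG00000027419) by 0.68 and the glycine receptor GLRA1 by 0.69. Each of these was nearer at 6 wpi. Without the block SLC5A7 and GLRA1 did not pass (adjusted p = 0.118 and 0.158). Other genes named SNAP25 (ENSDARG00000058117, 0.16, adjusted p = 0.632) and GAD1 (ENSDARG00000093411, 0.85, adjusted p = 0.151) did not pass. Neither did SYT1 (0.47), CHAT (0.28) and both genes named SLC17A6 (0.24 and 0.57), with adjusted p of 0.117 to 0.572. All of these lay nearer at 6 wpi. ELAVL3 (-0.18, adjusted p = 0.472) and ELAVL4 (-0.04, adjusted p = 0.929) did not pass and were further. The 3 that fell were UCHL1, a deubiquitinase of neurons (-1.55, nearer), the filament PRPH (-1.58, further) and the vesicle protein SYT4 (-0.68, further). PRPH had 21.5, 21.6, 26.4 and 42.9 FPKM at 6 wpi, against 64.7 to 100.2 at 1 wpi and 39.1 to 70.6 in uninjured cord, with no overlap between both times. Without the block 4 of the 119 rose and 4 fell.

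Of 56 genes of myelin and oligodendrocytes 7 rose and 3 fell (17.9%, against 6.67% of all genes, median 0.23). At 6 wpi 45 of them (80.4%, against 64.1% of all genes) were nearer. The tight junction protein cldnk of myelin had 829, 859, 704 and 1199 FPKM at 6 wpi, against 279.9 to 513 at 1 wpi and 653 to 1537 in uninjured cord (1.14 ± 0.18, log2, SE, adjusted p = 0.0269, 6 wpi nearer). ASPA, which breaks down N-acetylaspartate in oligodendrocytes, rose by 1.56 (adjusted p = 0.0281) and was nearer. mbpa, a myelin basic protein, had 23699, 18196, 23143 and 45846 FPKM at 6 wpi, against 11385, 7502, 19648, 13984 and 18972 at 1 wpi and 26871 to 99395 in uninjured cord. Its groups overlapped and it did not pass the test (0.96 ± 0.32, log2, SE, adjusted p = 0.124), with 6 wpi nearer. The falls were in tppp, cnp (-0.75, adjusted p = 0.0568 without the block) and qkia (-0.66), and cnp and qkia were further from uninjured cord at 6 wpi.

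**Figure D5:**
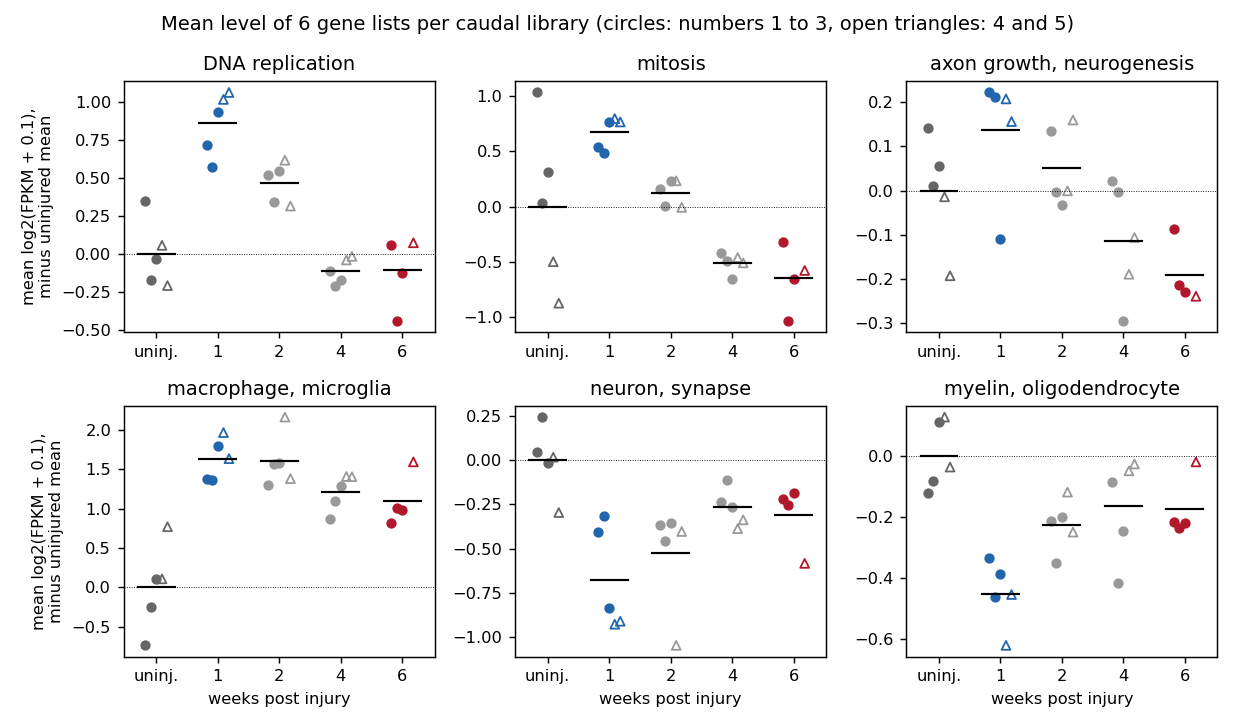
Mean log2(FPKM + 0.1) of 6 gene lists in each caudal library, relative to the mean of the uninjured libraries, with uninjured cord on the left and then 1, 2, 4 and 6 wpi, circles for replicates 1 to 3 and open triangles for replicates 4 and 5. The mitosis level was -1.03 to -0.32 at 6 wpi, against 0.48 to 0.79 at 1 wpi, while uninjured libraries spread from -0.87 to 1.03.

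Serotonin is made in spinal neurons from tryptophan by tryptophan hydroxylase and the decarboxylase DDC, and the study followed the receptors htr1b, htr2b and htr7c, which it chose on these libraries. Of 29 genes of the serotonin system 24 had a positive difference (median 0.27), 3 rose and 1 fell (13.8% called, against 6.67% of all genes). htr7c had 5.08, 4.94, 3.58 and 3.90 FPKM at 6 wpi, against 2.44, 3.16, 1.14, 2.71 and 1.59 at 1 wpi and 3.42 to 5.15 in uninjured cord. It rose without overlap (1.12 ± 0.19, log2, SE, adjusted p = 0.0313, 0.075 without the block), with 6 wpi nearer. htr1b had 4.4, 4.13, 4.01 and 4.45 FPKM at 6 wpi, against 4.18, 2.88, 1.91, 1.55 and 1.92 at 1 wpi and 4.34 to 7.05 in uninjured cord. The groups overlapped through replicate 1 of 1 wpi and the difference of 0.69 ± 0.22 (log2, SE) did not pass (adjusted p = 0.113), with 6 wpi nearer. HTR2B had 0.483 to 0.696 FPKM at 6 wpi, against 0.432 to 0.725 at 1 wpi and 0.748 to 1.12 in uninjured cord (0.08 ± 0.23, log2, SE, adjusted p = 0.859, 6 wpi nearer), and its locus overlaps PSMD1 on the opposite strand. DDC had 3.81, 2.50, 3.52 and 2.88 FPKM at 6 wpi, against 0.846 to 1.54 at 1 wpi and 0.821 to 1.57 in uninjured cord (1.14 ± 0.16, log2, SE, adjusted p = 0.023), and lay further from uninjured cord at 6 wpi. GATA2, a factor of serotonergic neurons among other cells, rose by 0.80 (adjusted p = 0.042, 0.0723 without the block, further), and TPH1, a tryptophan hydroxylase, fell by 1.73 (adjusted p = 0.042, nearer), to between 0.0526 and 0.231 FPKM at 6 wpi, against 0.335 to 1.2 at 1 wpi.

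Among matrix proteases and their inhibitors 8 of 32 fell and 1, TIMP4, rose (28.1%, against 6.67% of all genes, median -0.25). MMP9, a gelatinase, had 8.89, 8.25, 4.86 and 6.61 FPKM at 6 wpi, against 16.0, 19.5, 26.6, 27.1 and 20.3 at 1 wpi and 1.79 to 2.49 in uninjured cord (-1.53 ± 0.26, log2, SE, adjusted p = 0.0302, 6 wpi nearer). The protease adam8b fell by 2.06 (adjusted p = 0.0247, nearer). Of 87 genes of extracellular matrix and fibroblasts 7 fell and 1 rose (9.2%, near the 6.67% of all genes, median -0.37). LOX, which crosslinks collagen, fell by 1.91 (adjusted p = 0.0191) and EFEMP2, a matrix protein of elastic fibres, rose by 1.62 (adjusted p = 0.0249), both nearer at 6 wpi. EFEMP2 had 5.84, 3.85, 5.76 and 8.27 FPKM at 6 wpi, against 1.55 to 2.23 at 1 wpi and 4.95 to 10.5 in uninjured cord. Of 53 stress and chaperone genes 13 fell and 2 rose (28.3%, against 6.67% of all genes, median -0.39). The falls were 1.45 in the cell cycle inhibitor cdkn1a (adjusted p = 0.0183, nearer) and 2.15 in the heat shock protein hsp70.3 (adjusted p = 0.0249, further, below uninjured cord), among others.

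NDNF and hapln1a combined large falls with little spread at 1 wpi. NDNF (chr23:2050359-2099350), a secreted neurotrophic factor, had 3.45, 5.83, 2.93 and 5.14 FPKM at 6 wpi, against 29.6, 30.8, 28.6, 29.5 and 32.4 at 1 wpi and 2.40 to 3.32 in uninjured cord. The 1 wpi libraries varied by 1.47 FPKM (SD, n = 5) around a mean of 30.2, and the fold change was -2.83 ± 0.18 (log2, SE, adjusted p = 0.0132, 6 wpi nearer). hapln1a (chr5:46490622-46505702), a link protein that ties proteoglycans to hyaluronan, had 5.30, 5.35, 5.23 and 3.96 FPKM at 6 wpi, against 25.9, 28.7, 29.2, 31.9 and 32.0 at 1 wpi and 4.53 to 14.5 in uninjured cord (-2.53 ± 0.15, log2, SE, adjusted p = 0.0132, 6 wpi nearer). hapln1a belongs to the list of pigment, meningeal and cartilage genes, where 2 of 39 fell and 1 rose (7.69%, median -0.03). That share was near the 6.67% of all genes. The other fall was FOXD3, a factor of the neural crest (-1.72, adjusted p = 0.0145, nearer). The rise was the sulfate transporter SLC13A4 (0.91, nearer, adjusted p = 0.143 without the block).

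Some lists held markers of other cell types that the dissected tissue could hold. Of these, muscle (2.7% called) and erythrocyte genes (6.25%) did not exceed the 6.67% of all genes, and epidermal genes (9.09%) were near it. Endothelial (16.7%), lymphocyte (16.7%) and neutrophil genes (20%) exceeded it, each on few genes called. Of 37 muscle genes 1 fell, the glycolytic enzyme ALDOA (-2.48, nearer), and 0 rose, and their summed FPKM was 204 to 361 at 6 wpi, against 318 to 425 at 1 wpi and 211 to 2048 in uninjured cord. Of 16 erythrocyte genes 1 rose, the blood factor TAL1 (0.76, nearer), and 0 fell, with sums of 172 to 738 FPKM at 6 wpi, against 344 to 770 at 1 wpi. Of 22 epidermal genes 2 fell, ANXA1 (-1.96, nearer), which phagocytes also express, and the keratin krt8 (-1.22, nearer), with sums of 199 to 655 FPKM at 6 wpi, against 254 to 574 at 1 wpi. Endothelial and pericyte genes gave 4 falls and 2 rises of 36, with the hyaluronan receptor lyve1a falling by 3.17 (nearer), and lymphocyte genes 2 and 2 of 24. Neutrophil genes gave 2 falls, npsn (-1.33, nearer) and MMP9, and 1 rise of 15, NCF1, with sums of 79.4 to 157 FPKM at 6 wpi, against 75.9 to 284 at 1 wpi and 38.7 to 110.2 in uninjured cord. Cholesterol synthesis and transport gave 4 falls and 1 rise of 48 (10.4%, against 6.67% of all genes). TGF-beta and BMP signalling gave 0 of 35, where the target genes ID1 and ID2 differed by 0.07 and -0.26 (log2, both nearer at 6 wpi). The part of these cell types in the results above was not tested.

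The genes that passed the test and moved away from uninjured cord numbered 367, with 185 falls and 182 rises. Against the uninjured libraries themselves, in a fit of the same form, 92 of 28416 genes (0.324%) differed at 6 wpi at an adjusted p under 0.05. Of the genes given as further, RPE65, tmem196b and c3b.1 were among the 92 (each adjusted p = 0.0438), while TIMP4 was not (adjusted p = 0.130). Outside the rule for naming, and chosen after their values were seen, UCN3 and nppal were among them too. UCN3, a stress peptide of the CRH family, had 61.4, 58.5, 41.2 and 108 FPKM at 6 wpi, against 17.9, 16.4, 17, 15.7 and 16.7 at 1 wpi and 7.74 to 17 in uninjured cord (1.89 ± 0.23, log2, SE, adjusted p = 0.0197). nppal, a natriuretic peptide, had 168, 144, 136 and 173 FPKM at 6 wpi, against 52.8 to 97.6 at 1 wpi and 19.2 to 43.1 in uninjured cord (1.29 ± 0.21, log2, SE, adjusted p = 0.0286). nppb, which lies close to it on chromosome 8, fell as given above. ETV1, a transcription factor, had 4.09, 14.8, 4.73 and 7.98 FPKM at 6 wpi, against 0.994 to 2.89 at 1 wpi and 0.962 to 1.58 in uninjured cord (1.51 ± 0.26, log2, SE, adjusted p = 0.0305), and did not pass against uninjured cord (adjusted p = 0.0793).

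The libraries of 2 and 4 wpi took no part in the test. At 1, 2, 4 and 6 wpi crlf1a averaged 51.8, 16.6, 5.64 and 1.53 FPKM. gap43 averaged 1590.2, 662, 313 and 200.1 FPKM and NDNF 30.2, 21.1, 8.48 and 4.34 FPKM over the same weeks. Among the genes that rose, TIMP4 averaged 20.7, 56.1, 85.5 and 124 FPKM. RPE65 averaged 2.52, 12.8, 13.9 and 19.2 FPKM, so that most of its difference was there by 2 wpi. cd74a did not follow the order of weeks, with means of 372, 1219, 949 and 1071 FPKM, and SNAP25 averaged 871, 984, 1841 and 1732 FPKM. nppal (71.4, 102, 183 and 155) and mhc2dgb (7.99, 29.1, 16.6 and 20.3) also had a mean outside both ends. These steps were not tested.

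Whether any change belonged to the caudal side was asked with an interaction term over the 19 rostral and caudal libraries of 6 and 1 wpi. Its block was the number within each week, unlike the separate fits, so it need not equal the difference of their fold changes. The labels do not say that same-numbered rostral and caudal libraries come from the same fish. In rostral cord 1186 of 28109 genes (4.22%) differed between 6 and 1 wpi, and for 0 of 28039 genes (0%) the caudal change differed from the rostral one by limma at an adjusted p under 0.05, with 2789 at an unadjusted p under 0.05 and a lowest adjusted p of 0.129. Leaving out caudal 6 wpi replicate 1 gave 91 genes instead. The smallest p was that of NDNF, with an interaction of -1.46 ± 0.18 (log2, SE, adjusted p = 0.129). Its rostral change in the separate fit was -1.23 (log2). dlb, a Delta ligand of Notch signalling, had 1.2, 0.796, 1.37 and 1.27 FPKM at caudal 6 wpi, against 4.21, 4.64, 6.89, 3.76 and 4.21 at caudal 1 wpi, a fall of 2.01 (adjusted p = 0.0172, 6 wpi further), while its rostral difference was -0.38 (log2, adjusted p = 0.389). Its interaction was -1.55 ± 0.24 (log2, SE, adjusted p = 0.19). uts2d, a urotensin-related peptide, and ANXA2, a membrane-binding annexin, did not pass in caudal cord (adjusted p = 0.0713 and 0.0607) and had interactions of 1.67 and -1.79 (log2, adjusted p = 0.129 and 0.19), with 6 wpi further for uts2d and nearer for ANXA2. ANXA2 had 173, 40.6, 66.4 and 964 FPKM at caudal 6 wpi, against 328 to 1941 at caudal 1 wpi and 15.6 to 31.4 in uninjured caudal cord, with replicate 5 apart from the others.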

How the data were processed

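RNA-seq of caudal cord was analysed in 4 libraries of 6 wpi and 5 of 1 wpi, with 5 uninjured libraries as baseline. The authors deposited FPKM values for 40085 loci on danRer11, and the submitters' processing notes name HISAT2 2.0.5 and featureCounts 1.5.0-p3, without the strand setting. Fragments recovered from FPKM and gene length were whole within 0.05 in 100% of values, and the depth so found limits counting error alone, because PCR duplicates count 1 molecule repeatedly.

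Genes averaging 0.1 FPKM or more over the 9 libraries were put on the scale log2(FPKM + 0.1) and tested with limma 3.58.1 in R 4.3.3 (lmFit, eBayes with trend, two-sided, Benjamini-Hochberg, threshold 0.05), with the replicate number as a fixed block. The scale understates the change of low genes. Replicate numbers come from the labels, which do not say that a number marks a shared batch. The block was fixed by the rule that set this comparison. The correlation of deviations exceeded 0.1 in each of the 4 pairs (mean 0.246), but also in some pairs of different number. The fit was tested on simulated data.

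Of 31901 Ensembl identifiers 29178 had a symbol, 1719 symbols were shared by several identifiers, and such genes are given by identifier where needed. Members and lists were chosen with earlier results of these data known. Named genes were the 12 largest rises and falls that passed, did not overlap and averaged at least 1 FPKM, up to 4 genes of each list, the 3 receptors and up to 5 genes of the interaction. Some genes that this rule picked are not reported here. PCNA, TOP2A, mki67, TUBA1A, vgf, apoeb, mbpa, GFAP, SOX2 and other list members beyond these were added after their values were seen. Among 135 genes checked, 25 overlapped another locus and 21 of these on the opposite strand. Promoter sequences were not analysed here. The alternatives are given with their effects at the end.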

Additional observations from a re-analysis of the deposited data

Results flagged for a closer look

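In 188 sets of 4 or 5 libraries of a group (genes named by the rule and library measures), 11 had a library at a distance from the rest of its group, and chance alone would give about 1 in 20. Of these 11, 9 were at 6 wpi, with replicates 2 and 5 named most often. Replicate 2 of 6 wpi stood apart in MCM5, at 2.18 FPKM against 3.21 to 3.47 in the other libraries of 6 wpi, in hsp70.3, at 1.07 against 0.533 to 0.602, in SLC1A3, at 6.62 against 2.83 to 3.14, and in cntn1a, at 13.9 against 8.38 to 8.73. Replicate 5 of 6 wpi stood apart in UCHL1, at 307 FPKM against 98.0 to 114, in gap43, at 325 against 150 to 167, in hapln1a, at 3.96 against 5.23 to 5.35, and in the share of fragments on loci without an Ensembl identifier, at 3.22% against 4.46% to 4.53%. That share was also lower in replicates 4 and 5 than in replicates 1 to 3 of other caudal groups. At 1 wpi it was 3.51% and 3.46%, against 4.10% to 4.45%. In uninjured cord it was 2.67% and 2.76%, against 3.61% to 3.85%. The low share was thus not particular to 1 library, and its part in the results was not tested. Replicate 3 of 6 wpi had 4.19 FPKM of tubb6 against 9.67 to 11.1. In each of these genes except UCHL1, every library of 6 wpi, the distant one included, stayed on its own side of all libraries of 1 wpi.

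At 1 wpi, replicate 2 had the lowest mitochondrial share, 11.2% against 15.4% to 16.8%, and the highest U6 level, 1.57 FPKM against 0.435 to 0.641.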

How the results depend on the processing

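The count of genes called depended on the processing. It was 1793 and 1584 with pseudocounts of 1 and 0.01, 1841 with quantile normalization, 1904 with median ratio rescaling and 2589 with a minimum mean of 1 FPKM, against 1864, but 376 with no filter, 2905 with voom on the recovered fragments, 4168 with all 24 caudal libraries in 1 fit, 13 with replicates 1 to 3 only, and 0 with eBayes without trend, where the lowest adjusted p was 0.0607 and 6865 genes had an unadjusted p under 0.05. Leaving out any 1 of the 8 paired libraries gave 0 genes. Leaving out 1 wpi replicate 4, which has no weight in the fold change under the block, gave 1880. With no replicate block 1216 genes were called (356 rose, 860 fell), of which 1022 were also called with it, and of the 101 named genes that passed, 84 still did. Added after seeing the data, fits with neither the block nor 1 library gave 312 to 1598 genes (404, 587 and 312 without 6 wpi replicates 1, 2 and 3, and 959, 643, 509 and 549 without 1 wpi replicates 1, 3, 4 and 5), and 215 with replicates 1 to 3. The cause of these differences was not tested. The fits with 1 pair fewer have 2 residual degrees of freedom, against 3 in full and 7 without the block.

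All 101 kept their sign in every fit set in advance, but they were chosen because the full fit of the same libraries called them. Kept signs are thus no independent support. The share nearer to uninjured cord ran from 61.5% to 85.4% over the fits with calls, the highest with neither the block nor 1 wpi replicate 2, and from 72.2% to 85.4% over choices of uninjured libraries. The interaction called 0 genes, 2 with the minimum mean of 1 FPKM, 91 without caudal 6 wpi replicate 1 and 1 without caudal 1 wpi replicate 1. Signs turned only in genes that did not pass: ID2 (-0.26) was 0.041 with quantile normalization, HTR2B (0.08) was -0.001 with it and ran from -0.063 (without replicate 1 of either time) to 0.174 (without replicate 5), and ID1 (0.07) was -0.06 with no replicate block, -0.192 with replicates 1 to 3, and ran from -0.192 (without replicate 5 of either time) to 0.209 (without replicate 2) with 1 library fewer.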

Other observations

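Loci without an Ensembl identifier made up 6365 of the 27956 loci tested, and 225 of them differed between 6 and 1 wpi. That is a smaller share than the 6.67% over all loci tested (1864 of 27956). Of the Ensembl genes that differed, 1595 had a symbol. ENSDARG00000115359, which has no symbol in the table used here, was among the genes with the smallest p of the interaction. It had 0.450, 1.89, 0.377 and 3.73 FPKM at caudal 6 wpi, against 6.05, 9.56, 13.7, 15.0 and 9.01 at caudal 1 wpi, with at most 0.787 in uninjured caudal cord, and fell by 2.97 on the log2 scale (limma, adjusted p = 0.0361), nearer to uninjured cord.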
